A study of Homo sapiens with 6 samples.

Results

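The plasminogen activation system was read in human Capan1 cells, an established line from a well differentiated pancreatic cancer, exposed to the stellate cell line PS1 and alone. Its members were the genes PLAT, PLAU, PLAUR, SERPINE2, SERPINB2, SERPINB5, ANXA2 and S100A10P1, and every array probe annotated to these symbols was taken. For 6 of the 8 genes the annotation used here listed a probe, 10 probes in all among 47228, while SERPINB2 and S100A10P1 had none and were not analysed here. All 10 probes were detected on every array, so none entered through the group in which it was high.

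Capan1 exposed to PS1, stellate cells embedded in a gel of type I collagen and Matrigel under the cancer cells, gave 3 arrays, and Capan1 alone gave 3. Gels were raised onto grids after 24 hours, fed from below and harvested on day 10, and RNA came from the cancer cell layer, cut by laser microdissection from frozen sections. Both lines are single established lines, and no other treatment or genotype was named. The culture text and 1 further label name stellate cells for all 6 samples, so the grouping rests on the titles and source names, and the gel under Capan1 alone is not described separately. Nothing in the labels says that replicates came from separate cultures, so each p-value reflects only how far these samples spread, and that spread may be technical.

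Plasminogen is a circulating zymogen that is cut to plasmin, a protease that dissolves fibrin and degrades matrix proteins. The cut is made by tissue-type plasminogen activator (PLAT) or by urokinase (PLAU), which works at the cell surface bound to its receptor PLAUR, while serpins block the activators and annexin A2 with its partner S100A10 docks plasminogen and PLAT on membranes. In the pancreas PLAT and annexin A2 are known to be made at high levels by ductal cancers, and PLAT binds annexin A2 there.

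Sequence context was available for the promoters of 6 of the member genes, and not for PLAT or S100A10P1. The 250 bases before each RefSeq start (GRCh38.p14) were searched on both strands for the AP-1 motif TGANTCA and its variant TGACTAA, an NF-kappa-B motif, the cyclic AMP response element TGACGTCA, the SP1 motif GGGCGG, the ETS motif GGAAGTG and the TATA motif TATAAA, and no matches of different motifs overlapped in the windows printed here. TGANTCA stood in 4 of 8 windows of member genes, those of SERPINB5, ANXA2, PLAUR and SERPINB2, and in 6.57% of the 35116 windows in the table. GGGCGG stood in 5 of the 8 and in 42.6% of all windows, TATAAA in 2 and in 10.7%, and the others in 0, against 1.62% (TGACTAA), 1.73% (NF-kappa-B), 1.65% (TGACGTCA) and 9.28% (GGAAGTG) of all windows. The windows of the genes with TGANTCA that the array read are shown because they let a member that was called, SERPINB5, be set beside members with the same letters that were not. They run 5′ to 3′ and end at the base before the start, with the motif in capitals. SERPINB5 is at chr18:63476708-63476957 on the plus strand, ANXA2 at chr15:60397987-60398236 on the minus strand and PLAUR at chr19:43670170-43670419 on the minus strand.
SERPINB5: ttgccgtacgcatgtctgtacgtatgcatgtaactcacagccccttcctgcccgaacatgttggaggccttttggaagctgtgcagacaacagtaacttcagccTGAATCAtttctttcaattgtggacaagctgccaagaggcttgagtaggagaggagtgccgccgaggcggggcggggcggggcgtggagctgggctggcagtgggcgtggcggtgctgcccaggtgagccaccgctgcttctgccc
ANXA2: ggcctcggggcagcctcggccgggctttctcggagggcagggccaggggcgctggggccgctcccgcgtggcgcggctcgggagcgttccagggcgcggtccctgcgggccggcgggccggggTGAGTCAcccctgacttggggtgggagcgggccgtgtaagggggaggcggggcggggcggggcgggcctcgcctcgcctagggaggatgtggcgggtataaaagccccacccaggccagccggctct
PLAUR: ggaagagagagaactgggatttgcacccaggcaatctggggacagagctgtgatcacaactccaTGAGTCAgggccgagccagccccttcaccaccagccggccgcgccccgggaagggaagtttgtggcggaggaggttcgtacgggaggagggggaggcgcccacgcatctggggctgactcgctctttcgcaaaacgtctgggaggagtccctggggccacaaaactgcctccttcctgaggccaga
The motif began 146 bases before the start in SERPINB5, 127 in ANXA2 and 186 in PLAUR. A match is a description of the letters and not a bound site.

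The RNA of the layer was epithelial on both sides of the comparison. All 8 epithelial markers were detected on at least 3 arrays, led by KRT19, EPCAM and MUC1, and the log2 of their summed intensity was 15.06 to 15.29 with stellate cells and 14.83 to 15.08 alone. MUC1, a membrane mucin, rose by 1.19 ± 0.15 on the log2 scale (SE, limma adjusted p = 0.0015). Of 20 stellate and fibroblast markers 4 were detected on at least 3 arrays, VIM, ACTA2 and COL1A1 the brightest, and 10 on none, among them COL1A2, LUM, FAP, PDGFRB and THY1. The log2 of their summed intensity was 9.33 to 9.54 with stellate cells and 9.39 to 9.48 alone. Of the 4 measured, 2 had log2 changes above 0 and 2 below, with a median of 0.03. ACTA2 was dim and detected on 2 of 3 arrays with stellate cells, with a change of -1.04 ± 0.27 (SE, limma adjusted p = 0.0526). COL6A3, also dim, had 0.62 ± 0.36 (SE, limma adjusted p = 0.397), COL1A1 0.13 ± 0.24 and VIM -0.07 ± 0.28 (SE). Of 11 markers of leukocytes and endothelium 4 were detected on at least 3 arrays, with LYZ, CD68 and PECAM1 the brightest and CD163, CDH5, CSF1R, KDR and VWF on none. LYZ is also a product of epithelia, and the log2 of this list's sum was 11.19 to 11.59 with stellate cells and 10.64 to 10.96 alone. The part of these markers in the results below was not tested. Replicate 3 with stellate cells stood apart: it had the fewest detected probes, 16325 against 17785 to 19602 on the others, and an 18S ribosomal RNA probe at a log2 intensity of 12.10 against 7.11 to 8.78. Values without it are therefore given for each called member.

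With stellate cells in the gel, PLAT was the member that rose and SERPINB5 the one that fell, by 2.53-fold and 1.73-fold. PLAU, PLAUR, SERPINE2 and ANXA2, each read by its brightest probe, did not pass the test. The counts were thus 1 member gene higher and 1 lower of 6, where over all 10781 named genes 2.65% were called higher and 2.11% lower at a limma adjusted p under 0.05. Of the 10 member probes likewise 1 was called higher and 1 lower, where over all 18165 tested probes 4.02% were called, 2.01% higher and 2.00% lower. With 6 genes, a share above or below these backgrounds cannot be read from the counts. Values below are log2 intensities after background correction and quantile normalization unless the deposited signal is named, and each probe is compared with itself alone.

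PLAT, which encodes tissue-type plasminogen activator and was read by probe ILMN_1738742, had log2 intensities of 13.63, 13.41 and 12.49 on the 3 arrays with stellate cells, in replicate order. Alone it had 11.64, 12.40 and 11.47. The groups did not overlap, but the lowest array with stellate cells, replicate 3, lay just above the highest array alone, replicate 2. In the deposited signals, which are not normalized between arrays, these stood at 8432, 12745 and 4760 intensity units with stellate cells and at 4435, 5266 and 3126 alone. There the groups overlapped, since replicate 3 with stellate cells lay below replicate 2 alone. The log2 change was 1.34 ± 0.29 (SE), with means of 13.18 ± 0.61 with stellate cells and 11.84 ± 0.50 alone (SD, n = 3 each, limma adjusted p = 0.024). Without replicate 3 with stellate cells it was 1.69 ± 0.21 (limma adjusted p = 5.48e-05). In RNA of a captured layer, more PLAT per cell and more cells with PLAT cannot be told apart. The call was lost without replicate 1 or 2 with stellate cells, or without replicate 1 or 3 alone, with limma adjusted p between 0.0749 and 0.141, while the change stayed between 1.11 and 1.69 in all 6 fits that leave out an array.

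The other activator, PLAU, which encodes urokinase, was read by probe ILMN_1656057 at 8.47, 9.12 and 8.32 on the 3 arrays with stellate cells, in replicate order, and at 9.27, 8.96 and 8.89 alone. The groups overlapped, since replicate 2 with stellate cells lay above 2 of the 3 arrays alone. The log2 change was -0.40 ± 0.22 (SE, limma adjusted p = 0.36), with a 95% interval from -0.87 to 0.07. That interval leaves room for a fall of the size of that of SERPINB5 and lies below the interval of PLAT, 0.71 to 1.97. The difference between both activators in their change was not tested.

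PLAUR, the membrane-anchored receptor that concentrates urokinase at the cell surface, had 3 probes, of which 2 are annotated to 1 RefSeq transcript and 1 to another. The brightest, ILMN_2374340, had 8.65, 8.58 and 7.64 on the 3 arrays with stellate cells, in replicate order, and 8.55, 8.49 and 8.40 alone. The low value of replicate 3 with stellate cells set its sign: the log2 change was -0.19 ± 0.25 (SE, limma adjusted p = 0.734) with that array and 0.13 without it. Probe ILMN_1691508 had a change of 0.04 ± 0.22 and probe ILMN_2408543 one of 0.19 ± 0.22 (SE), so the 3 probes did not share a sign. Their 95% intervals together ran from -0.73 to 0.66.

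**Figure D1:**
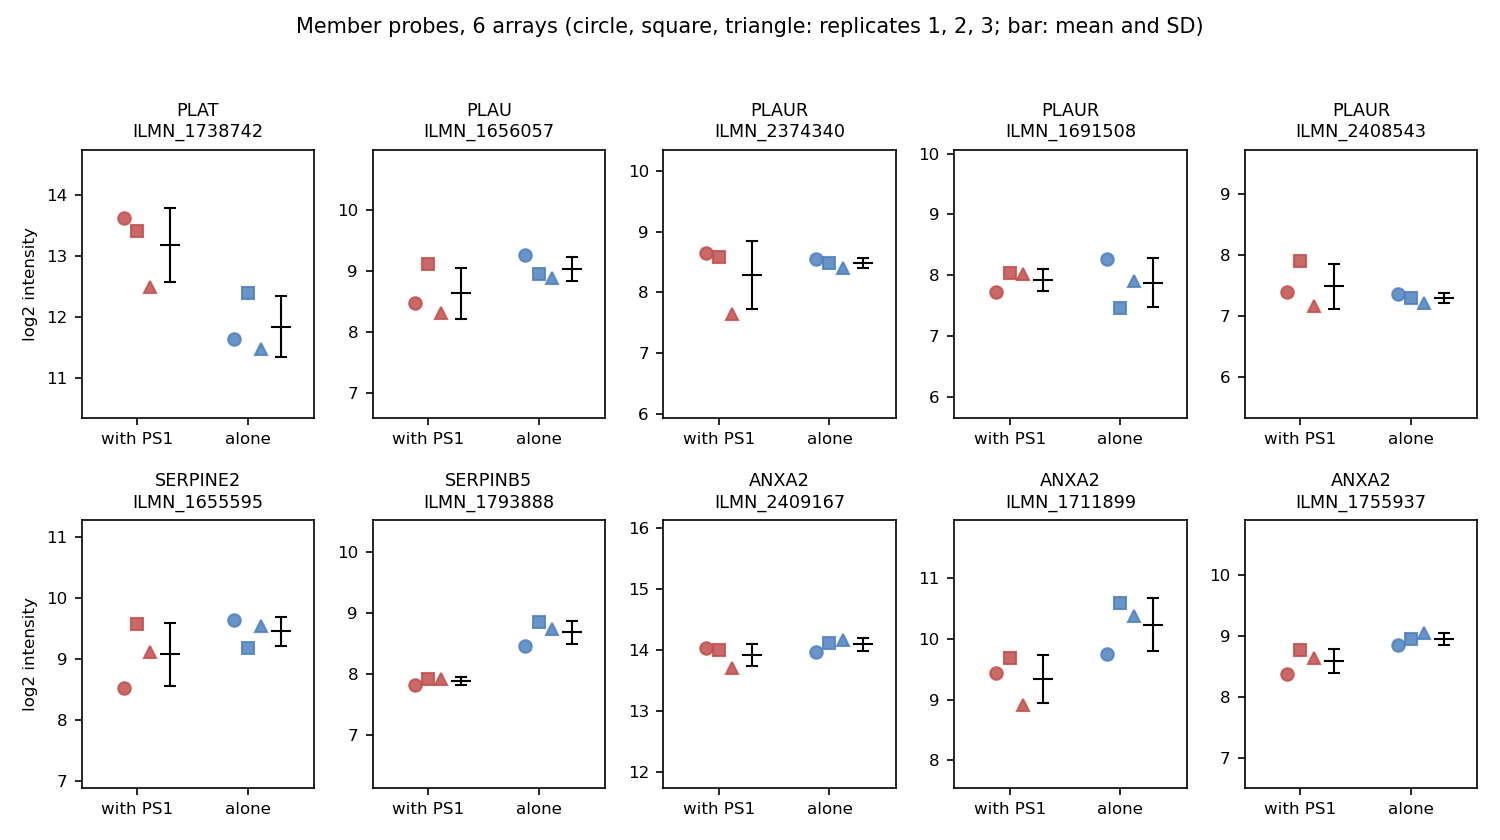
The log2 intensity of the 10 member probes is plotted for each array, with Capan1 grown with PS1 in red left of Capan1 alone in blue; circles, squares and triangles are replicates 1, 2 and 3, and black bars give the mean and SD (n = 3). Each panel spans the same number of log2 units; the groups are apart for PLAT, SERPINB5 and the ANXA2 probes ILMN_1711899 and ILMN_1755937, and overlap in the other 6 panels.

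Among the inhibitors, SERPINE2, which encodes protease nexin-1, a serpin that blocks thrombin, urokinase and PLAT, was read by probe ILMN_1655595 at 8.52, 9.57 and 9.11 on the 3 arrays with stellate cells, in replicate order, and at 9.64, 9.17 and 9.53 alone. The groups overlapped, and replicate 1 with stellate cells was the lowest of the 6. The log2 change was -0.38 ± 0.24 (SE, 95% interval -0.90 to 0.14, limma adjusted p = 0.441), and it was -0.11 without that array.

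SERPINB5, which encodes maspin, an epithelial serpin of clade B that does not inhibit proteases by the usual serpin mechanism, was read by probe ILMN_1793888. Its log2 intensities were 7.82, 7.93 and 7.93 on the 3 arrays with stellate cells, in replicate order, and 8.47, 8.85 and 8.74 alone. The arrays with stellate cells lay close together and all below those alone. The deposited signals also lay below those alone but spread more widely, and were 233, 406 and 264 intensity units with stellate cells and 599, 526 and 551 alone. The log2 change was -0.79 ± 0.17 (SE), with means of 7.89 ± 0.06 with stellate cells and 8.69 ± 0.19 alone (SD, n = 3 each, limma adjusted p = 0.0251). Replicate 3 with stellate cells did not set this: without it the change was -0.81 ± 0.17 (limma adjusted p = 0.00391). Without any 1 of the other 5 arrays the call was lost, at changes of -0.90 to -0.71 and limma adjusted p of 0.0517 to 0.151.

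ANXA2, which encodes annexin A2, the calcium-dependent membrane protein that docks plasminogen and PLAT, had 3 probes, all with log2 changes below 0. The brightest, ILMN_2409167, had 14.03, 14.00 and 13.71 on the 3 arrays with stellate cells, in replicate order, and 13.97, 14.12 and 14.16 alone, a change of -0.17 ± 0.14 (SE, limma adjusted p = 0.569). Probe ILMN_1711899 had 9.44, 9.68 and 8.91 with stellate cells and 9.74, 10.59 and 10.37 alone, so that its groups did not overlap. Its log2 change was -0.89 ± 0.24 (SE, limma adjusted p = 0.0613), just short of the threshold, and it passed without replicate 3 with stellate cells (-0.68, limma adjusted p = 0.0342), without replicate 1 alone (-1.14, limma adjusted p = 0.0407), with median scaling and with array weights. The probe ILMN_1755937, whose groups did not overlap either, had -0.36 ± 0.17 (SE, limma adjusted p = 0.29) and passed with array weights (-0.45, limma adjusted p = 0.0429). Over all tested probes the groups did not overlap in 23.6%, and among the member probes in 4 of 10.

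Processed copies of ANXA2 share its sequence, so how much each contributes to a probe's signal is uncertain. The probes of the pseudogenes ANXA2P1, ANXA2P2 and ANXA2P3 with the highest mean had log2 changes of -0.30 ± 0.30, -0.04 ± 0.18 and -0.48 ± 0.19 (SE), and none passed. A dimmer probe of ANXA2P1, ILMN_1698100, had -0.56 ± 0.19 (SE, limma adjusted p = 0.134) with no overlap of the groups. S100A10, the partner of annexin A2 and the parent gene of the member pseudogene S100A10P1, was read by 2 probes. ILMN_2046730 had 12.61, 13.14 and 12.70 on the 3 arrays with stellate cells, in replicate order, and 13.17, 13.42 and 13.10 alone. The groups overlapped by a single array, replicate 2 with stellate cells, and the change was -0.41 ± 0.16 (SE, limma adjusted p = 0.203). The second probe, ILMN_1796712, had -0.23 ± 0.16 (SE).

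The other genes of the system were taken from 8 lists by role. These lists were chosen with earlier results of these data known, so their counts are a description and not a test. Of 99 listed genes other than members 62 were measured, 4 rose and 3 fell, where 4.77% of all named genes were called in either direction. Their median log2 change was 0.03, against 0.02 over all named genes. Without replicate 3 with stellate cells 18 rose and 5 fell, and over the fits that leave out another array 1 or 2 rose and 2 or 3 fell. Plasminogen itself (PLG), the zymogen of plasmin made mainly by the liver, was not detected on any array.

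SERPINA5, the protein C inhibitor, which also blocks urokinase, rose. Probe ILMN_1759910 had 9.64, 9.30 and 8.68 on the 3 arrays with stellate cells, in replicate order, and 7.93, 8.0 and 8.15 alone. All arrays with stellate cells lay above those alone, with replicate 3 the nearest to them. The log2 change was 1.19 ± 0.23 (SE, limma adjusted p = 0.0142), a 2.27-fold difference, and 1.45 without that replicate. Leaving out any 1 of the arrays alone, or replicate 1 with stellate cells, ended the call, at limma adjusted p of 0.067 to 0.0799. The inhibitor list had 6 measured genes of 12, with 1 higher, SERPINA5, and 1 lower, SERPINB5, and a median change of -0.34. Over all named genes 2.65% were called higher and 2.11% lower. SERPINB5 was counted in this list although maspin does not inhibit proteases by the usual serpin mechanism. SERPINI1, which encodes neuroserpin, an inhibitor of PLAT in nervous tissue, had a value of -0.55 ± 0.24 (SE, limma adjusted p = 0.251) with no overlap of the groups.

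Proteases listed as possible activators of urokinase precursor or plasminogen, with the inhibitors SPINT1 and SPINT2, had 3 called genes, all higher, of 10 measured and 16 listed. The median log2 change was 0.47, and all 10 values were above 0. Over all named genes the median was 0.02, 5588 of 10781 values were above 0, and 2.65% were called higher. The list was chosen with earlier results of these data known, so its counts are a description and not a test. PRSS1, which encodes cationic trypsinogen, had a change of 1.13 ± 0.20 (SE, limma adjusted p = 0.00857). Its arrays stood at 11.66, 11.93 and 11.82 with stellate cells and at 10.75, 10.22 and 11.05 alone, and all 6 fits that leave out 1 array kept the call. Trypsinogen genes are near-identical copies, so the share of PRSS1 in its probe's signal is uncertain. PRSS3, another trypsinogen gene of the list, had a value of 0.60 ± 0.17 (SE, limma adjusted p = 0.0702).

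PRSS8, which encodes prostasin, a membrane-anchored protease of epithelia, was 2.07-fold higher (1.05 ± 0.22, SE, limma adjusted p = 0.0198). TMPRSS4, a transmembrane serine protease reported to cut urokinase precursor, was 1.93-fold higher (0.95 ± 0.24, SE, limma adjusted p = 0.0464). The groups did not overlap for either gene. PRSS8 was lost without replicate 1 or 2 with stellate cells or replicate 2 or 3 alone (limma adjusted p of 0.0564 to 0.105) and without the intensity trend (0.0613), and TMPRSS4 without any 1 array other than replicate 3 with stellate cells (0.102 to 0.229). ST14, which encodes matriptase, an activator of urokinase precursor and the partner of prostasin, had a value of 0.11 ± 0.16 (SE, limma adjusted p = 0.763). Without replicate 3 with stellate cells 8 genes of the list rose, and over the fits without another array 1 or 2 did.

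**Figure D2:**
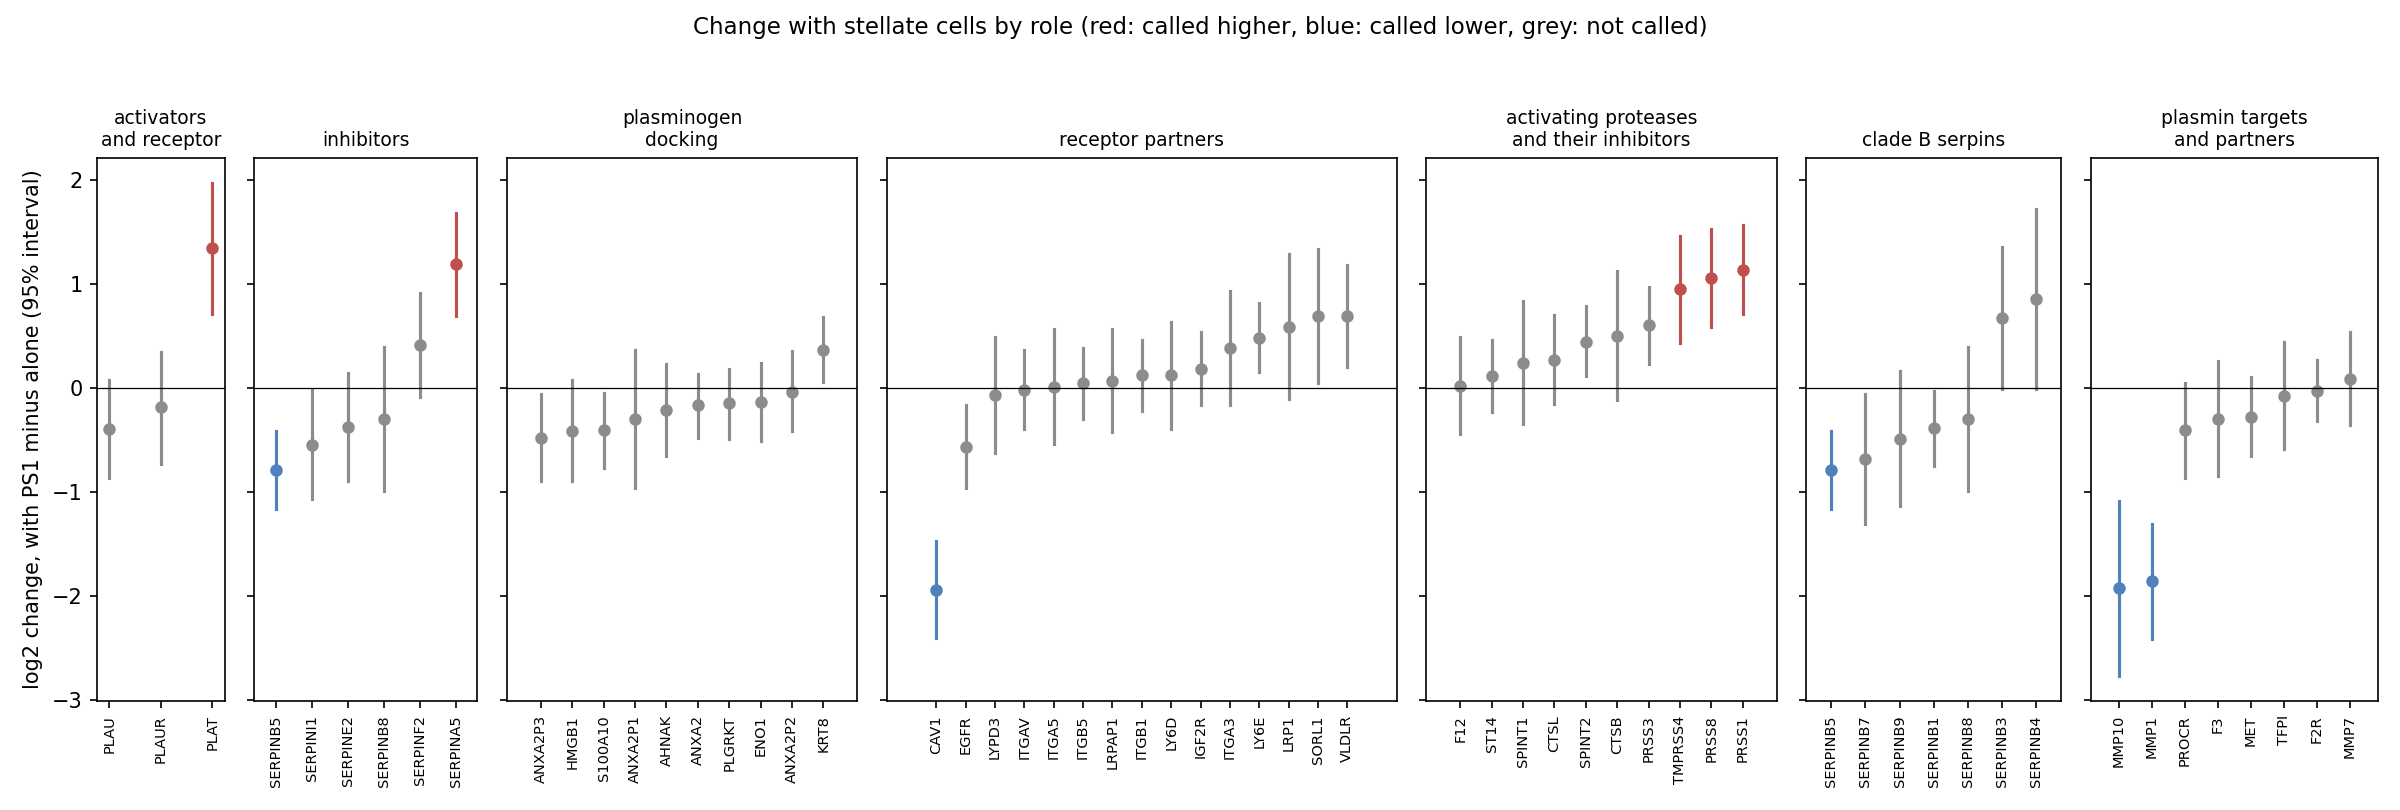
The log2 change, Capan1 with PS1 minus Capan1 alone, is plotted with its 95% interval for each measured gene of 7 role lists; red marks genes called higher, blue those called lower and grey those not called. PLAT, SERPINA5, PRSS1, PRSS8 and TMPRSS4 are red, SERPINB5, CAV1, MMP1 and MMP10 are blue, and PLAU and PLAUR sit at -0.40 and -0.19 in grey.

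Of 8 measured targets and partners of plasmin, from a list of 19, 2 fell, both matrix metalloproteinases, and none rose. Over all named genes 2.11% were called lower. MMP1, interstitial collagenase, whose precursor plasmin can activate, had 6.92, 7.96 and 7.34 on the 3 arrays with stellate cells, in replicate order, and 9.19, 9.60 and 9.02 alone. The gap between the groups was wider than the spread within either, and the log2 change was -1.86 ± 0.25 (SE, limma adjusted p = 0.00255). MMP10, stromelysin-2, had a change of -1.93 ± 0.38 (SE, limma adjusted p = 0.0176) and was detected on 2 of 3 arrays with stellate cells and all 3 alone. Leaving out replicate 1 or 2 alone, or replicate 1 with stellate cells, ended the call, at limma adjusted p of 0.0604 to 0.108. The change was -0.98 without background correction and -1.02 in the authors' deposited value table, with the call kept in both. The list's median was -0.29. PROCR, the endothelial protein C receptor, had a value of -0.41 ± 0.21 (SE, limma adjusted p = 0.323).

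Of 15 measured partners of the urokinase receptor 1 fell and none rose, where 2.11% of all named genes were called lower. Without replicate 3 with stellate cells 5 rose and 1 fell. The gene that fell with all arrays was CAV1, the caveolar coat protein reported to associate with PLAUR and integrins. Its probe ILMN_2149226 had a log2 change of -1.94 ± 0.22 (SE, limma adjusted p = 9.95e-04), and a dimmer probe had a value of -0.53 ± 0.25 (SE, limma adjusted p = 0.276). EGFR, a growth factor receptor that takes up signals from PLAUR, had a value of -0.57 ± 0.18 (SE, limma adjusted p = 0.111). LY6E, a small anchored protein of the same fold family as PLAUR, had one of 0.48 ± 0.15 (SE, limma adjusted p = 0.105). In the plasminogen docking list 0 of 10 measured genes passed by limma, although KRT8 and ANXA2P3 had values of 0.36 ± 0.14 and -0.48 ± 0.19 at unadjusted p of 0.0269 and 0.0291, and S100A10 one at 0.028. Its median was -0.19, and 9 of the 10 had log2 changes below 0, where 5193 of all 10781 named genes did. The list held ANXA2 and its processed copies ANXA2P1, ANXA2P2 and ANXA2P3. These share sequence, so their values may not be separate readings. Without replicate 3 with stellate cells 1 gene of the list passed in each direction.

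**Figure D3:**
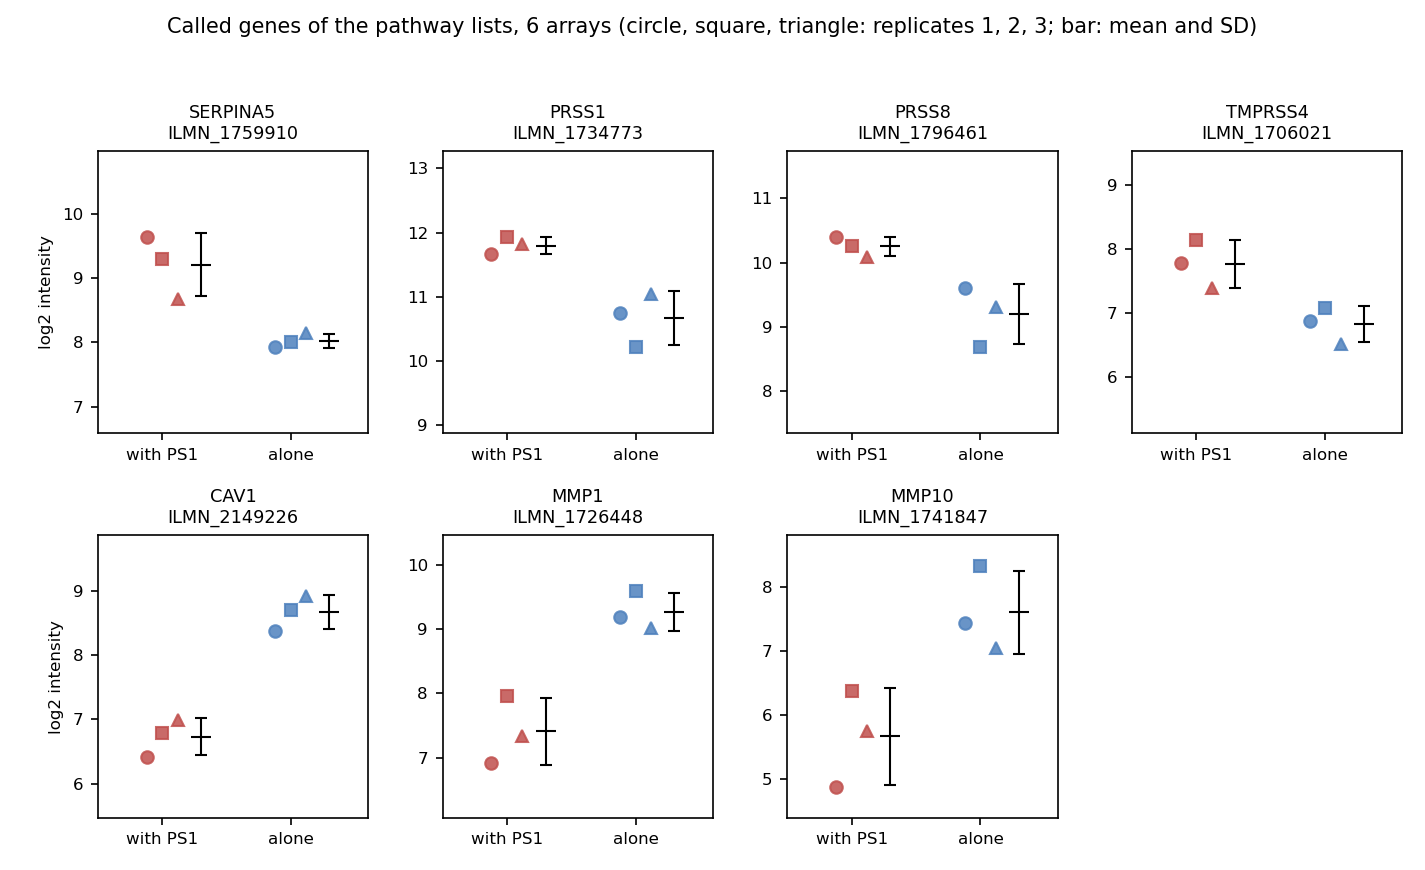
The log2 intensity on each array is plotted for the 7 called genes of the lists that are not members, with Capan1 grown with PS1 in red left of Capan1 alone in blue; circles, squares and triangles are replicates 1, 2 and 3, and black bars give the mean and SD (n = 3). Red lies above blue without overlap for SERPINA5, PRSS1, PRSS8 and TMPRSS4, and below it for CAV1, MMP1 and MMP10.

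The genes whose values followed the called members most closely over the 6 arrays were found among 10698 genes outside the lists, by the root mean square difference of log2 intensities centred on each gene's mean. For PLAT they were RALGPS1 and TMC4, with differences of 0.181 and 0.204 log2 units and log2 changes of 1.21 and 1.35. For SERPINB5 they were TMEM237 and GCLM, with differences of 0.0698 and 0.0891 log2 units and log2 changes of -0.73 and -0.91. All 4 passed the test, at limma adjusted p of 0.0368, 0.0186, 0.0232 and 0.00925. All 6 arrays entered the measure, so a shared difference between the groups counts as likeness.

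**Figure D4:**
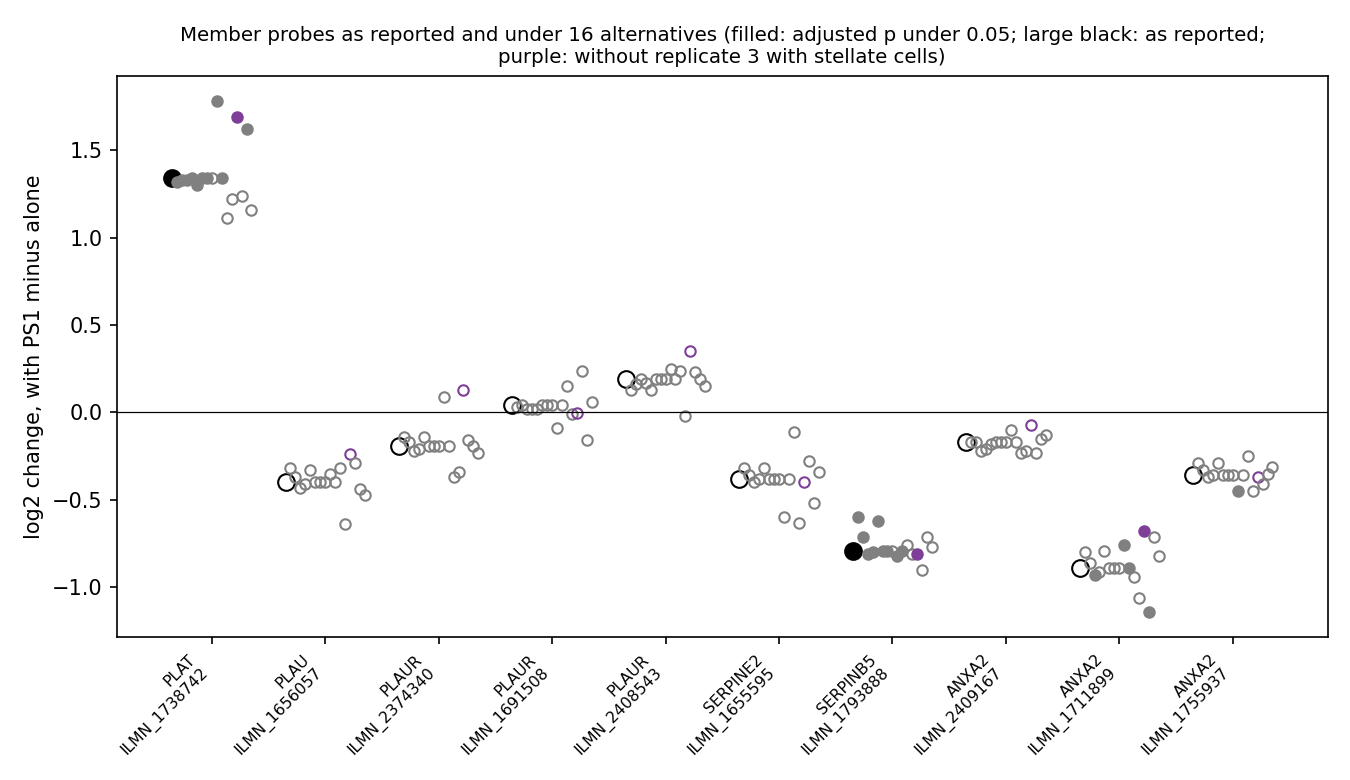
The log2 change, Capan1 with PS1 minus Capan1 alone, of each member probe is plotted as reported and under 16 alternatives, with the reported value as the large black circle, the fit without replicate 3 with stellate cells in purple and the others in grey; filled circles passed at a limma adjusted p under 0.05. PLAT stays between 1.11 and 1.78 and SERPINB5 between -0.90 and -0.60, and both have open circles, while the PLAUR probes lie on both sides of 0.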

How the data were processed

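RNA of laser-captured Capan1 cells was labelled as biotinylated cRNA for Illumina arrays, 6 in all, per the labels' protocols. The authors' deposited table gives each probe's intensity on each array beside its detection p-value, per the file headers, without normalization across arrays. The software was BeadStudio and GenomeStudio 2011.1, per the submitters' processing notes; how probes were summarised is not given in the sources used here. An alternative was the authors' deposited value table of normalized intensity: its array medians were 122.93, 122.96 and 122.90 with stellate cells and 122.94, 122.94 and 122.93 alone, and its probes had the rank order of the same array's signals (Spearman rho = 1), so each column keeps the order of its signals. The medians are those of a linear, uncentred scale, and its method is not given here.

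Background was corrected by limma's normexp method with control levels inferred from the detection p-values and an offset of 16, followed by quantile normalization and log2. The 18165 probes detected (p under 0.05) on 3 or more of the 6 arrays were tested with lmFit and eBayes (intensity trend, two-sided, limma 3.58.1, R 4.3.3) and Benjamini-Hochberg adjustment over all of them. A gene was read by its probe with the highest mean. An exact permutation test of 3 against 3 cannot go below p = 0.1 and was not used. The fit was tested on simulated data. Figures were drawn with matplotlib 3.10.9.

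Symbols came from the platform annotation, updated by gene ID: 30112 probes had 1 symbol, 8 several and 17108 none here. Promoters came from RefSeq (GRCh38.p14), matched by symbol, and motifs were chosen with the results known. Members and the gene lists, 11 with 3 of markers, were chosen with earlier results of these data known. Named are all members, PLG and S100A10, from each role list the called genes and up to 3 with the smallest p, the 3 brightest of each marker list, and the 2 genes nearest to each called member. ANXA2P1, ANXA2P2, PRSS3, ST14, SPINT1, SPINT2, COL6A3 and undetected markers were named after their values were seen. Alternatives covered background correction, offset, normalization, filters, variance model, array weights, the replicate number as a block and leaving out each array.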

Additional observations from a re-analysis of the deposited data

How the results depend on the processing

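Under median scaling, cyclic loess, an offset of 50, no background correction, the authors' value table, no filter, or a detection p under 0.01, the members stayed at 1 called higher and 1 lower. Without the intensity trend 0 members were called in each direction and 392 probes in all; PLAT and SERPINB5 then had limma adjusted p of 0.0728 and 0.0538. With array weights 3357 probes and 25 genes of the lists passed, and the PLAUR probes ILMN_2374340 and ILMN_1691508 turned to 0.09 and -0.09. Leaving out 1 array gave 0 to 1 members higher, 0 to 1 lower, 152 to 2758 probes and 3 to 23 genes of the lists, against 730 probes and 7 genes with all arrays. The high ends came without replicate 3 with stellate cells. The range of change over these fits was -0.37 to 0.13 for the PLAUR probe ILMN_2374340, -0.16 to 0.24 for ILMN_1691508 and -0.02 to 0.35 for ILMN_2408543, so all 3 crossed 0. The causes were not tested. Same-numbered samples did not deviate together (correlations of -0.02, -0.03 and 0.08), and with the replicate number as a block 1 member was higher, 1 lower, 783 probes and 8 genes of the lists passed, and the ANXA2 probe ILMN_1711899 passed too. TMPRSS4 was lost without the filter on dim probes, and TMPRSS4 and PRSS8 without the trend (limma adjusted p of 0.0725 and 0.0613). The number of arrays limits the precision of each change, and dim genes shrink without background correction, MMP10 to -0.98.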

Other observations

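Other serpins of clade B and other annexins were measured in the same layer. Of 7 measured clade B genes SERPINB5 fell and none rose, with a median log2 change of -0.39. Over all named genes 2.11% were called lower. SERPINB1, an inhibitor of neutrophil proteases, had a value of -0.39 ± 0.16 and SERPINB7 one of -0.69 ± 0.29 (SE, limma adjusted p = 0.224 for both). The SERPINB7 probe was dim, and detected on 1 of 3 arrays with stellate cells and 2 of 3 alone. SERPINB3 and SERPINB4, near-identical copies known as the squamous cell carcinoma antigens, were named here after their values were seen. They had values of 0.67 ± 0.31 and 0.85 ± 0.40 (SE, limma adjusted p = 0.276 and 0.279), in the other direction from SERPINB5. The groups overlapped for both. Replicate 3 with stellate cells had 7.42 and 5.74, against 7.32 to 7.80 and 5.92 to 6.20 alone. Without replicate 3 with stellate cells 2 genes of the list rose and 1 fell.

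Of 11 measured genes of annexins and S100 partners, which hold none of the members, 0 passed by limma with all arrays, at a median of 0.17, and 1 rose without replicate 3 with stellate cells. By unadjusted p, ANXA9, S100A6 and ANXA1 came under 0.05, at 0.0036, 0.0279 and 0.0359. ANXA9 had a value of 0.88 ± 0.24 (SE, limma adjusted p = 0.0682), S100A6 one of 0.34 ± 0.14, and ANXA1, an annexin of epithelia that binds phospholipid, one of -0.43 ± 0.18 (SE).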
